A study of Mus musculus with 8 samples.

Results

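The genes described here each appear exactly once in the authors' deposited table of RNA sites that differ in m6A marking between aged and young mouse cortex cells. They make up 478 sites in 478 genes, out of 2055 listed sites in 789 genes. The members were selected by counting the table's entries per gene. The table holds sites with an adjusted p under 0.05, an absolute log2 ratio of at least 0.58 and at least 25 methylated cells over both ages. The members were thus chosen on the difference between the ages, so both ages' values are a description and carry no test. None of the 6 listed sites on the Y chromosome, all of 1 gene, belonged to such a gene. A single listed site does not mean a single m6A site, since the table does not show the other sites of a gene.

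The aged group were APOBEC1-YTH mice, aged 12 to 14 months when treatment began, dosed with 20 mg/kg tamoxifen at intervals of 24 h over 5 days. Cortex was taken 7 days after dosing ended and dissociated to single cells. The 8 aged libraries are 4 lanes of each of 2 sublibraries, with no number of mice given, so they are not biological replicates. The young group comes from a companion series, whose ages, genotype and treatment the labels used here do not state, and they do not state the promoter that drives the transgene. Age and series therefore cannot be told apart. The table pools 2623 young and 846 aged cells and has no value per mouse or library, so each interval below is an exact binomial (Clopper-Pearson) 95% interval that covers the counting of cells only. Read depth per site is unknown. Marker genes of cortical cell types were not checked, since expression was not analysed here, and with cells pooled, fewer cells of a type and less of an RNA per cell cannot be told apart.

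N6-methyladenosine (m6A) is laid down on mRNA by a nuclear methyltransferase complex, mostly at an A within the DRACH motif (D is A, G or T, R is A or G, and H is A, C or T), and is enriched around stop codons and in long exons. YTH-domain proteins read the mark and affect splicing, decay and translation, which in neurons includes synaptic transcripts. APOBEC1-YTH joins a cytidine deaminase to a YTH domain, so the C beside a methylated A is converted to U and is seen as a C-to-U change in reads. Each site has 3 measures at each age. The share is the percent of cells called methylated, the fraction within is the mean C-to-U among those cells, and the mean C-to-U is taken over all cells, with the uncalled cells at 0.

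The sequences around the edited C are shown first for the 10 sites whose mean C-to-U differed most upward in aged cells, because all of them hold the same core, DRAC ending in the edited C. Each is 21 bases of the transcript, 5′ to 3′ in DNA letters, from GENCODE M21 on GRCm38 (mm10), and the capitals mark the edited C with the 3 bases before it and the 1 after it.
Uggt2, chr14:118998120-118998140, minus strand: ggtgtgaTGACGaatctaaac
Smarca4, chr9:21639352-21639372, plus strand: gaagattGAACAggagcgcaa
Ubp1, chr9:113958686-113958706, plus strand: agaatgaAAACGgggaataca
Grin2a, chr16:9572365-9572385, minus strand: ctgtaggGAACGggcactgtg
Zfp318, chr17:46405919-46405939, plus strand: gcagtctGAACTggacaaagt
Med1, chr11:98155620-98155640, minus strand: aaagcacGAACGgggttctcc
Aup1, chr6:83056436-83056456, plus strand: tggtagtGAACAggggtgtgg
Nsd3, chr8:25662758-25662778, plus strand: tcagagaGAACGtgcccaatg
Maged1, chrX:94539887-94539907, minus strand: agactcaGAACGtggagtccc
Magi3, chr3:104219726-104219746, minus strand: tggaggtGAACGggacgccgg

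The next 10 are those with the largest downward differences, shown in the same way.
Gabbr1, chr17:37074196-37074216, plus strand: gatggacTGACCgggcgggag
Tmem59l, chr8:70483880-70483900, minus strand: gagatatAAACCtttaaataa
Ppp3r1, chr11:17199272-17199292, plus strand: tgtcactGAACTgtaaatcat
Nme7, chr1:164437112-164437132, plus strand: tgtgttcATTCTtttattgtc
Cnot7, chr8:40507462-40507482, minus strand: ggcagttTAACTttaagttta
Unc13a, chr8:71653415-71653435, minus strand: gtgtgctGGACGgcacatcca
Erdr1, chrX:170011018-170011038, plus strand: accctcgCCCCGctggacgga
Tusc3, chr8:39046573-39046593, plus strand: tcagaatGAACGgcgacaagt
Wrn, chr8:33324283-33324303, minus strand: aaatagaAGACAatctgttga
Caskin1, chr17:24504577-24504597, plus strand: cccccacAGACGcccaccaaa

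All 10 upward sites had an A before the edited C within DRAC, and 7 of them had a G after it. That G lies outside DRACH, which has A, C or T there. Whether the C-to-U change at these 7 sites is editing beside m6A was not tested. Among the 10 downward sites, 8 had DRAC and 4 had a G after the C. The Nme7 and Erdr1 sites had T and C before the edited base, so their C did not follow an A. The bases around the Erdr1 site also occur in another annotated gene, and the annotation holds Erdr1 as Gm21887, so the assignment to that gene is in doubt.

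The largest upward difference lay in Uggt2, a folding sensor for glycoproteins in the endoplasmic reticulum, in exon 37 of 39. Its share was 2.40% (1.85 to 3.06) in the young and 10.2% (8.21 to 12.4) in the aged group, while the fraction within was 87.0% and 88.6%. The increase at Uggt2 was thus in the number of called cells, with similar fractions in each. Smarca4, the ATPase of the BAF chromatin remodelling complex, had a mean of 6.66% in aged against 1.43% in young cells. Its share was 2.13% (1.62 to 2.76) in the young and 7.80% (6.08 to 9.82) in the aged group. Ubp1, a transcription factor of the CP2 family, had a mean of 6.24% in aged against 1.33% in young cells, and its fraction within was 42.9% and 75.4%. Both measures were higher at Smarca4 and Ubp1. Grin2a, the GluN2A subunit of NMDA receptors, was the 3′ UTR site among the 10. Its share was 7.55% (6.57 to 8.63) in the young and 10.05% (8.10 to 12.3) in the aged group, and these intervals overlap. The fraction within Grin2a-called cells was 48.1% and 84.5%, so the higher mean of 8.49% against 3.63% came with the fraction more than with the share.

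Smarca4, Zfp318, Med1 and Nsd3 belong to the list of transcription and chromatin genes. Zfp318, a nuclear zinc finger protein, had a mean of 6.27% in aged against 1.77% in young cells. Med1, a Mediator subunit that contacts nuclear receptors, had a share of 1.87% (1.39 to 2.46) in the young and 6.38% (4.83 to 8.25) in the aged group. Nsd3, a histone H3 lysine methyltransferase, had a share of 1.60% (1.16 to 2.16) in the young and 6.86% (5.25 to 8.77) in the aged group. Each of these 3 lay in coding sequence, and their shares had separate intervals. Aup1, which acts in lipid droplets and in degradation at the endoplasmic reticulum, had a mean of 5.17% in aged against 0.904% in young cells, at a site covered by a noncoding transcript of the gene. Maged1, a MAGE-family adaptor, was called in 20 young and 44 aged cells, a share of 0.762% (0.466 to 1.18) in the young and 5.20% (3.80 to 6.92) in the aged group. Magi3, a membrane-associated scaffold, had a mean of 4.66% in aged against 1.29% in young cells, with the fraction within at 82.4% and 89.6%. In all 10 of these genes both the share and the fraction within were higher in aged cells. At 9 of the 10 (all but Grin2a) the intervals of the shares were separate. Among all listed sites they were separate with the aged share higher at 47.4%. The 10 were picked by their difference in mean, so these counts only describe them. The adjusted p-values of the authors' deposited table were 1.81e-33 at Uggt2, 4.44e-10 at Smarca4, and 7.62e-24 at Grin2a. The sources used here do not give the authors' test, and the listed sites were selected on these p-values.

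The largest downward difference lay in Gabbr1, a subunit of the GABA-B receptor, in the 3′ UTR. Its share was 13.6% (12.3 to 14.9) in the young and 3.19% (2.11 to 4.61) in the aged group, but the called aged cells had the higher fraction, 88.5% against 68.3%. The same pairing of fewer cells with a higher fraction stood at Ppp3r1, the regulatory B subunit of calcineurin. It was called in 336 young and 6 aged cells, with a fraction within of 38.8% and 83.6%. At Erdr1 the fraction within was 75.6% and 81.9%, and at Nme7, a member of the nucleoside diphosphate kinase family, 42.5% and 47.4%. Nme7 was called in 274 young and 4 aged cells. With 4 to 6 aged cells at Ppp3r1 and Nme7, the aged fraction rests on few cells.

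At 5 of the 6 other downward sites the aged fraction was under 5% or there was no called aged cell, and at Wrn it was 59.1% against 97.0% in young cells. Tmem59l, a brain-enriched membrane protein gene, was called in 202 young and 0 aged cells, and 0 of 846, taken as at most 3 cells, allows a share of up to 0.355% (the exact 95% interval, as plotted, reaches 0.435%). Cnot7, a deadenylase of the CCR4-NOT complex, was called in 109 young and 0 aged cells, and the fraction in the young cells was 95.5%. Unc13a, the Munc13 protein that primes synaptic vesicles, was called in 122 young and 2 aged cells. The fraction within Unc13a-called cells was 75.6% and 0.750%. Tusc3, a subunit of the oligosaccharyltransferase complex, had a mean of 0.0315% in aged against 2.92% in young cells. Wrn, a RecQ helicase, had a share of 2.86% (2.26 to 3.57) in the young and 0.473% (0.129 to 1.21) in the aged group. Caskin1, a synaptic scaffold that binds CASK, was called in 78 young and 4 aged cells. Of the 10 downward sites 5 lay on chromosome 8 (Tmem59l, Cnot7, Unc13a, Tusc3 and Wrn). Whether a C-to-U difference at these 5 sites is editing beside m6A or a base that differs between the genomes of the mice was not tested, so they are not read as lost m6A. At all 10 downward sites the intervals of the shares were separate, with the aged share lower, against 15.1% of all listed sites. The 10 were picked by their difference in mean, so this count only describes them. The adjusted p-values of the authors' deposited table were 3.11e-08 at Unc13a, 2.96e-07 at Cnot7 and 0.0125 at Caskin1. As above, the authors' test is not given and the listed sites were selected on these values.

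**Figure D1:**
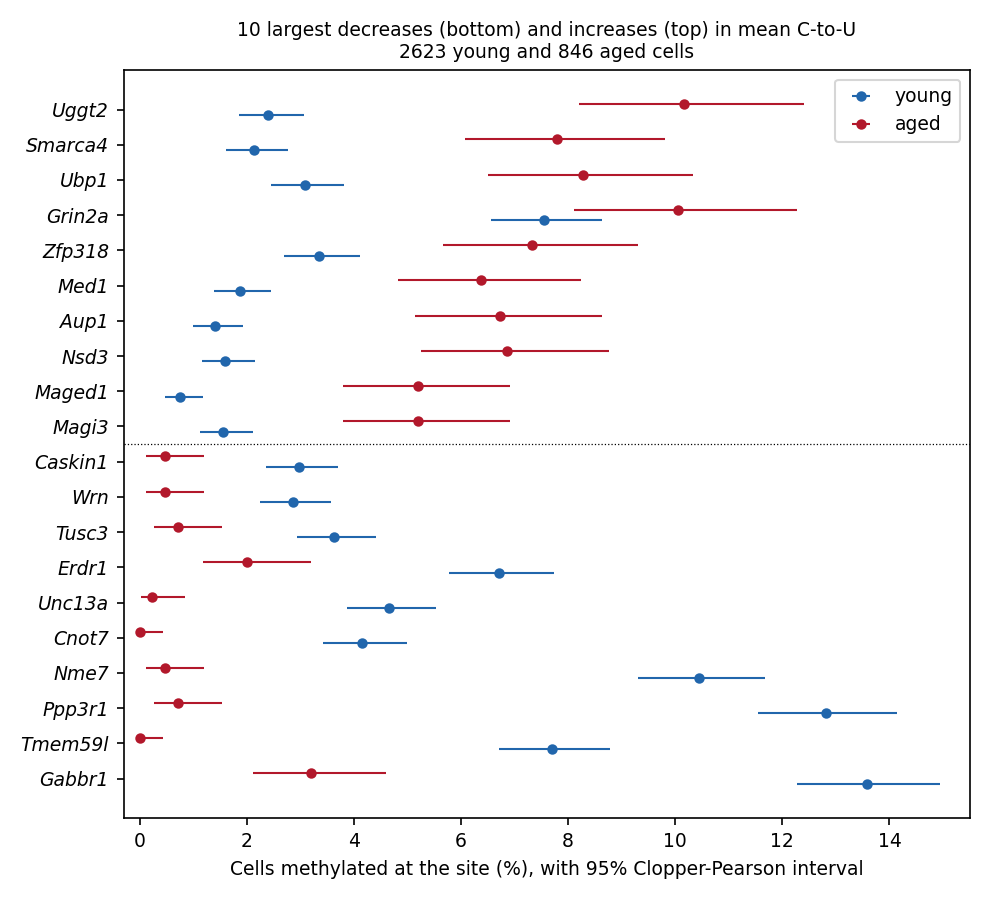
Percent of cells methylated (x axis) at the sites of the 10 genes with the largest increases (upper rows) and the 10 with the largest decreases (lower rows) in mean C-to-U, young cells in blue and aged in red. Points are shares over 2623 young and 846 aged cells and lines are 95% Clopper-Pearson intervals, which overlap between ages at Grin2a alone among these 20.

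Across the 478 single sites the 3 measures gave different counts. By mean C-to-U 253 (52.9%) were higher with age and 225 lower, where 41.5% of all listed sites were higher. By share 370 of 478 (77.4%) were higher, against 75.4% of all listed sites. By fraction within, 180 of 473 (38.1%) of those with a called aged cell were higher, against 31.9%. The list as a whole held 7.06% of the 29127 sites that the authors' adjustment covered. Since the rule used this contrast, these backgrounds are given for scale and nothing is read from them.

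The median site was called in 24 young and 16 aged cells, a share of 0.915% and 1.89%. The median of the mean C-to-U was 0.358% in aged against 0.340% in young cells, and the median fraction within was 35.1% and 23.0%. Over all single sites the median share was thus higher and the median fraction lower in aged cells, and these medians need not come from the same sites. Counting error is large at this depth. The intervals of the shares were separate, with the aged share higher, at 190 of 478 (39.7%), against 47.4% of all listed sites. They were separate with the aged share lower at 35 of 478 (7.32%), against 15.1%, and they overlapped at 253. A total of 25 to 29 called cells, close to the table's minimum of 25, stood behind 103 of the sites. For single sites that were higher by mean, the log2 ratio of aged to young had a median of 1.62, and among those with a lower mean and a called aged cell it was -1.83.

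**Figure D2:**
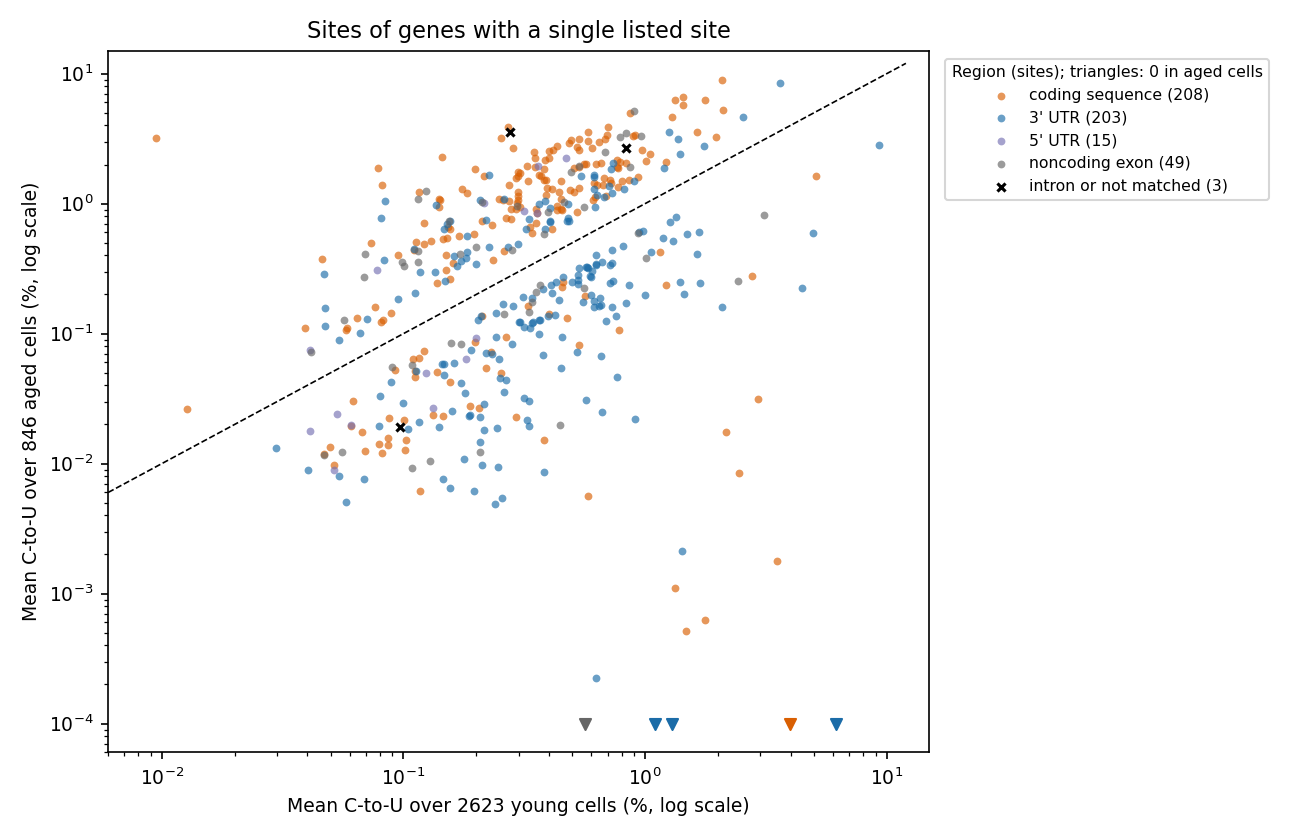
Mean C-to-U over young cells (x axis, percent, log scale) and over aged cells (y axis, percent, log scale) at the 478 single sites, coloured by transcript region. The dashed line marks equal values, triangles mark the 5 sites with no called aged cell, and the band along the line is empty because the table holds no absolute log2 ratio under 0.58, with coding sites mostly above it and 3′ UTR sites mostly below.

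Just outside the rule stand the 155 genes with 2 listed sites (310 sites). By mean 150 of 310 (48.4%) of these were higher, by share 76.1%, and the median fraction within was 16.5% in aged against 28.6% in young cells. Another 155 genes had 3 or more sites (1261 sites), of which 35.5% were higher by mean and 74.5% by share. Their median fraction within was 11.8% in young and 3.16% in aged cells. Over both ages the median number of called cells was 72 for these sites, 43 in genes with 2 sites and 41.5 for single sites. In young cells it was 23 in genes with 2 sites and 24 for single sites. The median fraction within was highest for single sites at both ages. These differences were not tested because the number of listed sites comes from the same values.

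**Figure D3:**
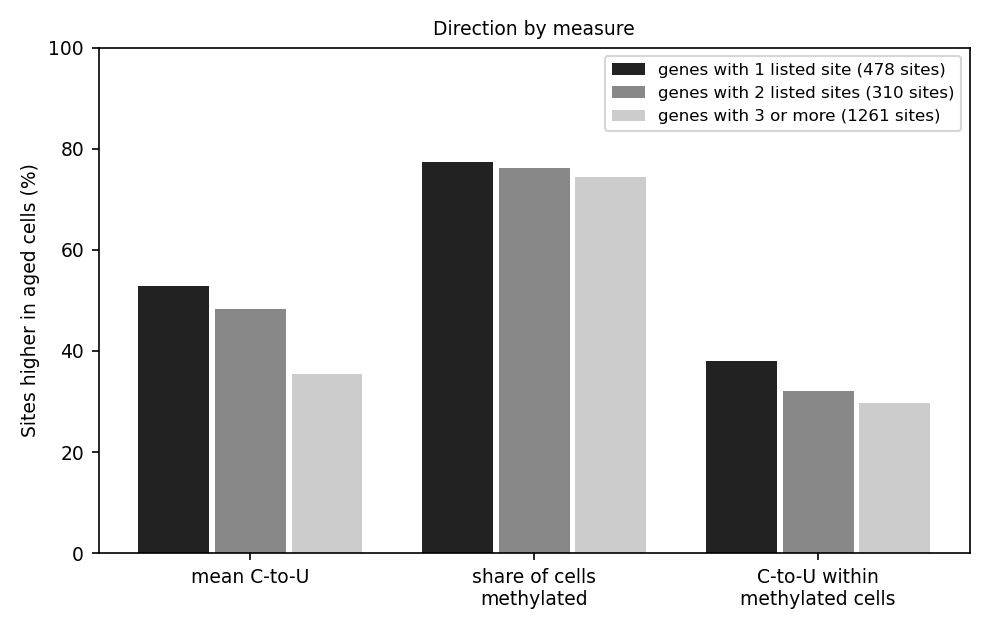
Percent of sites higher in aged cells (y axis) by each of the 3 measures (x axis), for genes with 1, 2, and 3 or more listed sites. Bars by share lie between 74.5% and 77.4%, while bars by mean range from 35.5% to 52.9%.

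The 2 components combined in 4 ways. At 156 of 473 (33.0%) sites both the share and the fraction within were higher in aged cells, against 22.2% of all listed sites with a called aged cell. Both were lower at 79 of 473 (16.7%), against 14.1%. The share was higher with a lower fraction at 214 of 473 (45.2%), against 54.0%, and lower with a higher fraction at 24 of 473 (5.07%), against 9.77%. The most frequent combination was the higher share with the lower fraction, both among single sites and in the list as a whole. At 122 of 478 (25.5%) single sites the mean was lower while the share was higher in aged cells, against 35.3% of all listed sites. Golga4, a golgin of the trans-Golgi network, is an example. Its share was 2.17% (1.65 to 2.81) in the young and 5.56% (4.11 to 7.32) in the aged group, and its fraction within was 21.8% and 2.36%. Sipa1l1, a postsynaptic Rap GTPase-activating protein, was called in 82 young and 67 aged cells, at a fraction of 7.01% and 0.895%. The adhesion gene Negr1 had a fraction of 5.19% and 0.482%, and the cochaperone gene Cdc37l1 40.1% and 5.85%, again with the higher share in aged cells. These 4 genes were named because a lower mean came with a larger share of called cells. The C did not follow an A at Golga4 and Negr1.

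**Figure D4:**
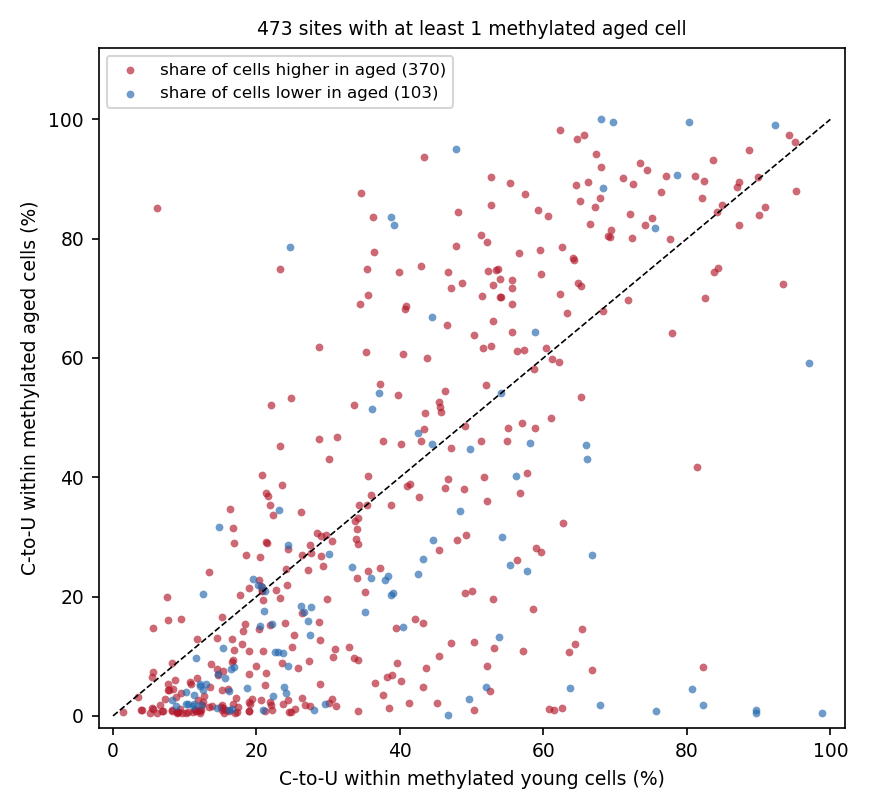
C-to-U within called young cells (x axis, percent) and within called aged cells (y axis, percent) at the 473 single sites with a called aged cell, red where the aged share was higher and blue where it was lower. The dashed line marks equal values, and 121 sites lie under 5% on the y axis while 4 of all 478 lie under 5% on the x axis.

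In called aged cells 121 of 473 (25.6%) single sites had a fraction under 5%, against 45.3% of all listed sites with a called aged cell, and 74 of 473 (15.6%) had 75% or more, against 7.17%. In young cells 4 of 478 (0.837%) were under 5%, against 16.0% of all listed sites, and 41 of 478 (8.58%) had 75% or more, against 3.45%. The rule used these values, so the shares of all listed sites are given for scale. A steep drop in the fraction, from 50% or more in young to under 5% or no called cell in aged cells, was present at 18 single sites (3.77%) and at 1.51% of all listed sites. The share of called cells was lower in aged cells at 13 of the 18, but higher at 5, in Aak1, Id2, Ptpn2, Usp33 and 5330434G04Rik. Intervals of the shares were separate at 14 of the 18 and overlapped at Id2. At Id2, a repressor of basic helix-loop-helix factors, 20 young and 7 aged cells were called, at a fraction of 50.3% and 1.05%. The reverse, from under 5% to 50% or more, was present at 0. These limits, and the genes named from them here, were chosen after the values were seen. The site nearest to a reverse case was in Wdr7, a regulator of the vacuolar proton pump, which was called in 4 young and 32 aged cells at a fraction of 6.18% and 85.1%.

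Of the 18 steep drops, 6 lay on chromosome 8, which holds 20 of the 478 single sites. They were Ctxn1 at chr8:4257711, Tusc3 at chr8:39046583, Cnot7 at chr8:40507472, Zfp866 at chr8:69762522, Tmem59l at chr8:70483890 and Unc13a at chr8:71653425 (mm10). Of the 5 single sites with no called aged cell, 4 were among them. Ctxn1, a small membrane protein gene of cortical neurons, was called in 58 young and 0 aged cells, and the zinc finger gene Zfp866 in 31 young and 0 aged cells. The other was Prkcb, a protein kinase C gene, called in 79 young and 0 aged cells at a young fraction of 18.7%. Elsewhere, Cacna2d3, an auxiliary subunit of calcium channels, was called in 52 young cells and 1 aged cell. The kinesin-related gene Stard9 was called in 39 young cells and likewise 1 aged cell. The young fractions at Cacna2d3 and Stard9 were 89.7% and 98.9%. Whether these 18 sites differ in m6A, or in the base that the genomes of the mice hold there, was not tested. The count on chromosome 8 was noticed in the data, and no test was made of it.

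An annotated exon covered 475 of the 478 sites. Coding sequence held 208 of 478 (43.5%), 3′ UTRs 203 of 478 (42.5%), noncoding exons 49 and 5′ UTRs 15. These counts depend on the transcript chosen. On the longest coding transcript of each gene, coding sequence held 208, 3′ UTRs 169 and noncoding exons 27, and 60 sites fell in introns or outside. On the 426 transcripts with a coding sequence, 47.7% of single sites lay in the 3′ UTR and 3.52% in the 5′ UTR. All C of the same transcripts were distributed, on average, with 39.6% in the 3′ UTR and 9.34% in the 5′ UTR. Sites within 400 bases of the stop codon made up 114 of 426 (26.8%), against 19.8% of all C. Of coding sites 70 of 208 (33.7%) lay in exons longer than 400 bases, close to the 34.7% of coding C there. The position relative to the stop codon was not used to choose the sites, but coverage along the transcripts is unknown and was not compared.

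Coding sites were mostly higher and 3′ UTR sites mostly lower in aged cells by mean C-to-U, a contrast that was not tested. By mean, 151 of 208 (72.6%) coding sites were higher in aged cells and 65 of 203 (32.0%) 3′ UTR sites. By share the counts were 193 of 208 and 118 of 203. Of all listed sites, in any region, 75.4% were higher by share. Counts by share for the other listed sites of each region are not given here. No count by share is therefore read as particular to single sites. Medians of the mean C-to-U over coding sites were 0.344% for young and 0.950% for aged cells, and over 3′ UTR sites 0.379% and 0.200%. The fractions within coding sites were close between ages, at medians of 45.6% and 48.3%, whereas in 3′ UTRs they were 27.5% and 16.0%. The other listed sites, those of genes with 2 or more, were higher by mean at 52.7% of coding and 20.9% of 3′ UTR sites. In 5′ UTRs all 15 of 15 single sites were higher by share and 7 by mean. One of them is in Slit1, an axon guidance ligand, with a mean of 1.95% in aged against 0.361% in young cells.

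The edited C followed an A at 417 of 475 (87.8%) of the single sites that could be read on a transcript, all of which had a C there, and at 26.6% of the 19114 other C within 100 bases. RAC held 82.9% against 14.8%, and DRAC 77.9% against 12.5%. The other listed sites had C after A at 73.5% and DRAC at 60.9%, and these sites share genes, so the difference from single sites was not tested. Sites with a higher mean in aged cells had DRAC at 86.1% and sites with a lower mean at 68.8%.

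The base after the edited C was A at 203, G at 163, T at 66 and C at 40 of 472 sites. A G thus followed at 34.5%, whereas it followed 9.48% of the other C nearby. The core AACG was read on the gene's strand with its C as the edited base. It stood at 111 of 472 (23.5%) single sites and at 0.654% of the other C. Its frequency at the other listed sites is not given here, so it is not read as particular to single sites. AACG was more frequent among sites with a higher mean in aged cells, at 91 of 250, than among those with a lower mean, at 20 of 222. Of the 111 AACG sites, 91 were higher by mean and 103 by share, against 160 of 364 and 265 of the other sites, which include 3 with no next base read. Within coding sequence 76 of 85 AACG sites and 75 of 123 others were higher by mean. Within 3′ UTRs the counts were 11 of 19 and 54 of 184. The fraction within AACG sites had a median of 53.9% in young and 67.5% in aged cells, and at the other sites 27.6% and 15.6%. AACG sites thus carried the higher median fractions at both ages. Whether the C-to-U change at these sites, whose G lies outside DRACH, is editing beside m6A was not tested.

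The genes were also grouped by function, using 17 lists of names, 1 of which (translation) held a single gene, Eif2s2. The lists took in 298 of the 478 genes, and a gene may stand in more than 1 of them. Among all single sites 253 of 478 were higher by mean and 370 by share, with a median difference in mean of 0.0710 points. By region, 151 of 208 coding sites and 65 of 203 3′ UTR sites were higher by mean. The counts of each list stand beside these values and were not tested. Where a mean is given as from 1 value to another, the first is young and the second aged.

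Cytoskeleton and motor genes had the highest proportion among lists of 5 or more genes, with 21 of 26 higher by mean and 25 by share, and a median difference of 0.714 points. All 14 coding sites of the list were higher by mean, as were 6 of 11 3′ UTR sites. Map1a, a microtubule-associated protein of dendrites, had a share of 2.44% (1.88 to 3.11) in the young and 6.26% (4.73 to 8.11) in the aged group and a fraction within of 28.8% and 61.9%. Clip1, which tracks growing microtubule ends, was called in 9 young and 33 aged cells. Dctn1, the large dynactin subunit, had a share of 2.67% (2.09 to 3.36) in the young and 5.91% (4.42 to 7.72) in the aged group, at a fraction of 61.3% and 59.8%. These 3 are parts of the microtubule system. Dync1h1, the dynein heavy chain, went with them from 0.624% to 2.02% in mean, and Macf1, a microtubule-actin crosslinker, from 0.349% to 1.93%. Among the 5 lower genes were Mapt, which encodes tau, with a mean of 0.206% in aged against 0.410% in young cells, and the tropomodulin gene Tmod2, with 0.00540% in aged against 0.256% in young cells.

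Genes of the presynaptic terminal and vesicle cycle were higher by mean in 10 of 15 and by share in 13. Sv2b, a vesicle glycoprotein, had a share of 0.762% (0.466 to 1.18) in the young and 3.55% (2.41 to 5.02) in the aged group. Rph3a, a Rab3 effector, went from 0.774% to 1.90% in mean. Sh3glb2, an endophilin B taken in by the name pattern, went from 0.790% to 3.26%, although endophilins of this class act mostly on intracellular membranes. Unc13a, described above, had the largest difference of the 5 lower ones.

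Postsynaptic and receptor genes were higher by mean in 4 of 12 and by share in 6, and 9 of the 12 sites lay in 3′ UTRs. Gabra3 and Gabra4 encode subunits of the GABA-A receptor. Gabra3 had a mean of 0.172% in aged against 0.837% in young cells, and Gabra4 0.137% in aged against 0.397% in young cells. At both subunits the intervals of the shares overlapped between ages. Nsmf, a synapse-to-nucleus messenger, had a share of 0.457% (0.237 to 0.798) in the young and 2.25% (1.36 to 3.49) in the aged group in coding sequence.

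Ion channels, pumps and solute carriers had the lowest proportion, with 4 of 18 higher by mean and 10 by share, and a median difference of -0.120 points. Of these sites 11 lay in 3′ UTRs, of which 2 were higher by mean. Besides Cacna2d3, the lower genes included Kcnj9, a potassium channel gated by G proteins, with 0.165% in aged against 0.658% in young cells. Slc8a1, a sodium-calcium exchanger, had 0.244% in aged against 0.715% in young cells. Atp2a2, the calcium pump of the endoplasmic reticulum, had a share of 3.96% (3.25 to 4.78) in the young and 1.54% (0.821 to 2.61) in the aged group. Slc4a8, a bicarbonate transporter, went from 0.530% to 1.90% in mean, and Slc24a4, a potassium-dependent sodium-calcium exchanger, from 0.328% to 1.50%. Both of the latter lay in coding sequence with AACG at the edited base.

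**Figure D5:**
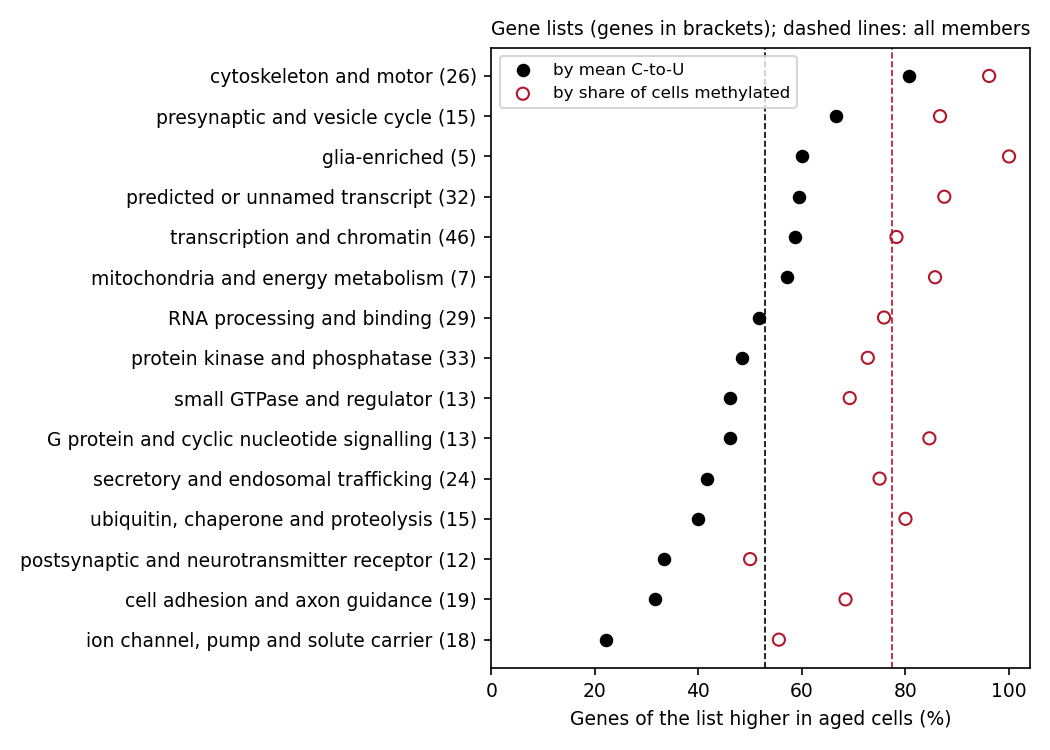
Percent of single-site genes higher in aged cells (x axis) in each list of 5 or more genes (y axis, number of genes in brackets), by mean C-to-U (filled) and by share of cells (open circles). Dashed lines mark all 478 genes, and the filled points run from 22.2% in channels and transporters to 80.8% in cytoskeleton and motor genes.

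Transcription and chromatin genes formed the largest list, with 27 of 46 higher by mean and 36 by share. Its coding sites were higher in 19 of 27 and its 3′ UTR sites in 7 of 17. The same counts over all single sites were 151 of 208 and 65 of 203. Smarca4 and Smarcc1, subunits of the same remodelling complex, were both higher, and Smarcc1 went from 1.26% to 3.56% in its 3′ UTR. Dnmt3a, a de novo DNA methyltransferase, had a share of 0.648% (0.378 to 1.04) in the young and 3.66% (2.50 to 5.16) in the aged group and a fraction within of 82.6% and 70.1%.

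RNA processing and binding genes were near evenly divided, with 15 of 29 higher by mean. Their coding sites were higher in 13 of 18, and their 3′ UTR sites in 1 of 9. Over all single sites these counts were 151 of 208 and 65 of 203. Dhx15, a helicase that takes spliceosomes apart, had a share of 6.29% (5.39 to 7.29) in the young and 10.05% (8.10 to 12.3) in the aged group. Ppig, a cyclophilin of nuclear speckles, was called in 26 young and 35 aged cells. Ddx3x, an RNA helicase of translation, was the 1 higher 3′ UTR site, with 1.86% in aged against 0.721% in young cells. Elavl3, a neuronal RNA-binding protein, was among the lower ones, with a share of 13.5% (12.2 to 14.9) in the young and 8.27% (6.51 to 10.3) in the aged group at a C that follows a T.

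Kinase and phosphatase genes had 16 of 33 higher by mean. By region this was 11 of 12 coding sites and 4 of 19 3′ UTR sites. Sik2, a salt-inducible kinase, went from 0.965% to 3.31%, and Brsk1, a kinase of neuronal polarity, from 0.401% to 2.54%. Mapk8ip3, a scaffold for JNK and kinesin taken in by name, went from 0.680% to 3.14%. The calcineurin genes Ppp3r1 and Ppp3cb were both lower by mean. Ppp3cb, a catalytic subunit, was called in 24 young and 3 aged cells. The intervals of its shares overlapped, and its aged value rests on few cells.

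Small GTPase genes and their regulators were higher by mean in 6 of 13. Cdc42bpa, a kinase that acts downstream of Cdc42, had a share of 1.64% (1.19 to 2.20) in the young and 4.96% (3.60 to 6.65) in the aged group. Ralgapa1, a catalytic subunit of the Ral GTPase-activating complex, had 1.18% (0.804 to 1.67) in the young and 4.26% (3.00 to 5.84) in the aged group, and Arhgap5, a GTPase-activating protein, went from 0.145% to 2.28% in mean. In G protein and cyclic nucleotide signalling 6 of 13 were higher by mean and 11 by share. Rgs6, which speeds GTP hydrolysis by G proteins, went from 0.347% to 2.48% and the G protein gene Gnaz from 0.736% to 2.07%, while Rgs7bp, which anchors a regulator of this family at the membrane, went from 1.30% to 0.512%.

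Adhesion and guidance genes were higher by mean in 6 of 19, with Cntn1, a contactin of axons, at 1.31% in aged against 0.392% in young cells and Lrrc4c, a netrin-G ligand, at 0.0460% in aged against 0.767% in young cells. The Cntn1 site was in coding sequence and the Lrrc4c site in the 3′ UTR. In the trafficking list 10 of 24 were higher by mean. Tmem63b, a mechanosensitive channel taken in by name, went from 0.495% to 3.11%, and Osbp2, an oxysterol-binding protein, from 0.285% to 2.67%. In the list of ubiquitin, chaperone and protease genes 6 of 15 were higher by mean and 12 by share. Besides Uggt2 these included Rnf227, a RING finger gene, with a share of 1.68% (1.22 to 2.25) in the young and 6.86% (5.25 to 8.77) in the aged group, while Hspa12a, a distant HSP70 relative, had 5.49% (4.65 to 6.43) in the young and 0.709% (0.261 to 1.54) in the aged group.

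Mitochondrial and energy genes were few, with 4 of 7 higher by mean, among them Got1, a transaminase of the malate-aspartate shuttle, from 0.833% to 2.05%. The glycolytic gene Aldoa went from 0.170% to 0.567% and Pdk1, a kinase that inhibits pyruvate dehydrogenase, from 0.115% to 0.430%. Of genes enriched in glia 5 had a single site. Qk, an RNA-binding protein of myelinating cells, went from 0.787% to 2.10%, and Sparcl1, a matrix protein of astrocytes, from 0.335% to 0.663%. By share all 5 of the list were higher in aged cells, as were 370 of all 478 single sites. By mean 3 of the 5 were higher. Expression of these glial genes, and so the proportion of glia at either age, was not analysed here.

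Predicted or unnamed transcripts made up 32 of the genes, of which 19 were higher by mean and 28 by share. B830012L14Rik went from 0.275% to 3.58% at a position outside its annotated exons, 2900079G21Rik from 0.837% to 3.48% and Gm13610 from 2.42% to 0.255%. The bases around the last 2 sites also occur in another annotated gene, so their assignment is in doubt. Named noncoding RNAs were 3, with Snhg4, a snoRNA host, going from 0.833% to 2.69%, the antisense transcript Chn1os3 from 3.10% to 0.820% and Pantr1 from 0.0900% to 0.0556%. Snhg4 was not found in the annotation, so no region is given for it.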

How the data were processed

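C-to-U changes that mark m6A were measured in single cells of aged mouse cortex, in 8 libraries of 1 group, and compared by the authors with young cells of a companion series. Per the labels' protocols, cells were dissociated, fixed and barcoded by split-pool ligation from polyA RNA, whereas the series' design text describes sorted nuclei and total RNA. The submitters' processing notes name STAR 2.7.5 and mm10, and the design text names the Bullseye pipeline. No source used here gives the read filters, the test or a depth normalisation.

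Per the file headers, the deposited table gives per site the percent of cells methylated, counts of methylated cells (not reads), the mean C-to-U fraction over all cells and within methylated cells, a log2 ratio of young to aged means, and the authors' p-value and adjusted p-value. The percentages and counts together gave 2623 young and 846 aged cells. The sign of the log2 ratio was turned, and fractions are printed as percent. Sites were placed on GENCODE M21 transcripts (474 members by name, 2 by an older name, 2 not matched), each taking the highest-ranked transcript with an exon there. Deposited positions, read as counted from 0, fell on a C at all 475 of 478 members that could be read on a transcript, and printed positions count from 1.

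Members and lists were chosen with earlier results of these data known. Counts, medians and Clopper-Pearson intervals were computed with Python 3.11.15, pandas 2.3.3 and scipy 1.17.1, and no significance test was run. A count of 0 was given a limit of 3 counts. Named genes were the 10 largest differences in mean each way, 5 with a lower mean and higher share, up to 5 with 0 called cells at an age, and up to 3 per list. Some genes that this rule or another choice named are not reported here. Genes named outside this rule were chosen after their values were seen. Alternatives changed the limits on p, ratio and cells, the context, copies, gene type, merging of sites within 10 bases, and the transcript.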

Additional observations from a re-analysis of the deposited data

How the results depend on the processing

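Of 65 recomputed percentages, 56 stayed within the 95% binomial interval of the value reported and 9 did not. All 12 percentages of the sequence context stayed within it. With the authors' adjusted p under 0.01, 60.2% of sites were higher by mean and 85.1% by share. With at least 10 called cells in each age these were 62.9% and 88.6%, since that filter removes sites with few called aged cells. With at least 50 called cells over both ages 68.3% were higher by share. With regions taken from the longest coding transcript, 35.4% of sites lay in 3′ UTRs, 5.65% in noncoding exons and 12.6% in introns or outside, while coding sequence held the same 43.5%. With the edited C after A, 0% lay in introns or outside. That change, counted among the 9, was fixed beforehand, since the context was read only at sites within an annotated exon. Chromosome 8 and the steep drops in fraction were also left out in turn, both settings chosen after seeing the data. The percentages by all 3 measures then stayed within the interval. These outcomes, counted among the 56, were likewise fixed beforehand. Removing 20 or 18 of the 478 sites could not have moved any of them outside it, so they show nothing about those sites. Precision is limited by the number of called cells, and read depth per site is unknown. No paired analysis was possible because the table has no value per replicate, and for the same reason no library could be left out.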
